A study of Mus musculus with 21 samples.

Results

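The major histocompatibility complex of the mouse, called H2, was represented by 98 of the 186826 regions of the H3K4me1 table, all of them on chromosome 17. A region was counted when the table's nearest gene had a name that starts with H2- and the region lay within 50 kb of that gene's start site. The farthest region lay 31440 bp away, near H2-M10.5, and no region with an H2- name was left out by the distance limit. The 98 regions carried 36 gene names and spanned 3.30 Mb of chromosome 17, which holds 7820 regions in all, and 322 regions with other gene names lay among them. H3K4me1, a histone mark of enhancers and of promoter flanks, had been mapped by CUT&RUN, in which an antibody guides a nuclease to the marked chromatin, in mouse embryonic stem cells. Of the 21 samples, 16 were H3K4me1 libraries, 2 in each of 8 groups made of 4 genotypes and 2 cell states. The naive state is that of cells held in LIF and 2i, and the formative state is that reached 63 h after both were withdrawn. MLL3 and MLL4 are the methyltransferases that place much of this mark. The wild type (WT, line R1) was compared with a line lacking MLL3 with a floxed MLL4 allele (MLL3KO_MLL4fl, called floxed below), with cells lacking both enzymes (MLL3KO_MLL4KO, DKO) and with cells whose 2 enzymes are catalytically dead (MLL3CD_MLL4CD, dCD, line R1). The labels gave no line for floxed and DKO, so the genotype and the origin of the line cannot be told apart in any comparison of these with WT.

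Class I molecules present peptides from inside the cell to cytotoxic T cells, and class II molecules present peptides taken up from outside to helper T cells. Classical class I genes are expressed widely but weakly in pluripotent cells and respond to interferon and to NLRC5, whereas class II genes need CIITA and are mainly used by antigen presenting cells. The complex is among the most variable stretches between mouse strains, and its class I genes are copies of one another.

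The members fell into 4 sets by class. Classical class I held 13 regions of H2-K1, H2-D1 and H2-L. Class II held 19 regions of 8 genes, which were H2-Aa, H2-Ab1, H2-Eb1, H2-Eb2 and the pseudogene H2-Ea-ps, whose products or relatives form the peptide receptors, and H2-DMa, H2-DMb2 and H2-Oa, which steer peptide loading. Non-classical class I held 63 regions of 24 genes: H2-Q1, H2-Q2, H2-Q4, H2-Q5, H2-Q6, H2-Q7, H2-Q8, H2-Q9 and H2-Q10; H2-T3, H2-T9, H2-T10, H2-T23, H2-T24, H2-T-ps and H2-Bl; and H2-M3, H2-M5, H2-M10.1, H2-M10.2, H2-M10.4, H2-M10.5, H2-M10.6 and H2-M11. The pseudogene H2-K2 added 3 regions. By the table's annotation 51 regions were intergenic, 23 intronic and 10 at a promoter. GENCODE M21 lists 45 H2- genes on chromosome 17, of which 32 had a region. The genes without one included H2-Ke6, H2-Ob, H2-DMb1, H2-T22 and H2-Q3. The names H2-L, H2-T9, H2-Q8 and H2-Q9 are not in that annotation on chromosome 17. The promoter of H2-D1 in RefSeq lay under a region that the table calls H2-L (chr17:35261570-35264709), that of H2-Q7 under one called H2-Q9 (chr17:35437341-35441614) and that of H2-T22 under one called H2-T9 (chr17:36040034-36045158). Values under these names are therefore those of the places given.

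The promoters of 6 members are shown because they cover the classes and the genes described below. Each run is the 180 bases just before the RefSeq start (GRCm38.p6), read in the direction of the gene, with matches to 5 short motifs on either strand in capitals. The motifs were the enhancer A of class I genes (an NF-kappaB site, the 11 capital letters that stand first in H2-K1), its first 9 letters alone, the core of the interferon response element (GAAA, any 2 bases, GAAA), ATTGG (the Y box, read CCAAT on the other strand) and TGACG (the X2 box). The runs lie at chr17:34000334-34000513 on the minus strand for H2-K1, chr17:35262914-35263093 on the plus strand for H2-D1, chr17:35342127-35342306 plus for H2-Q2, chr17:36032702-36032881 minus for H2-T23, chr17:36190152-36190331 minus for H2-T3 and chr17:34287824-34288003 minus for H2-Aa.
H2-K1: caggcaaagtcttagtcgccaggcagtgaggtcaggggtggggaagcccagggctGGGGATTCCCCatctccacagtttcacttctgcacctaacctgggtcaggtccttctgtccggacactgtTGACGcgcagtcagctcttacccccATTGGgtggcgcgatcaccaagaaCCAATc
H2-D1: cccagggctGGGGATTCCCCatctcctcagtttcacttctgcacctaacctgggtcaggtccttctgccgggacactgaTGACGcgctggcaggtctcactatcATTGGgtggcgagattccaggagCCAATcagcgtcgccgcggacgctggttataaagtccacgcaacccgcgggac
H2-Q2: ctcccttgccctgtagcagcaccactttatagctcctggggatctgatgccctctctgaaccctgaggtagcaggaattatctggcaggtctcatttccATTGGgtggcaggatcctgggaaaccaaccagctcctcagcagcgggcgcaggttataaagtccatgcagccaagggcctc
H2-T23: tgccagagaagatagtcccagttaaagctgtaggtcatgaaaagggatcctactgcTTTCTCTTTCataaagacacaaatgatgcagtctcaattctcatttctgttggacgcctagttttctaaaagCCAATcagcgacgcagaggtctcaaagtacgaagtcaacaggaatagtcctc
H2-T3: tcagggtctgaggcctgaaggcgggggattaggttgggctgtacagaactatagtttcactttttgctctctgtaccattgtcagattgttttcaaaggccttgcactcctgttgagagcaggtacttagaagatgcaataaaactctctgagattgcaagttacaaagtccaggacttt
H2-Aa: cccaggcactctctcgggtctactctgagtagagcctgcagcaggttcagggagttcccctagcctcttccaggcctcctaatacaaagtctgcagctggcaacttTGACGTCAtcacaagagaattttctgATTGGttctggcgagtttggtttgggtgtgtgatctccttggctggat
H2-K1 and H2-D1 shared the enhancer A, an X2 match and Y box matches in the same order, H2-T23 held the interferon core on the other strand, and none of the motifs was found in the run of H2-T3. Among 35 H2- entries of the RefSeq promoter table (300 bases each, more than 1 entry for some genes), 4 held the enhancer A, in H2-K1, H2-D1 and H2-Q6, against 0.0304% of all 32851 promoters. Its first 9 letters stood in 5 entries, H2-Q7 being the added one, against 0.25% of all. The interferon core stood in those of H2-T23 and H2-T22, against 3.44% of all. ATTGG was found in 31 of 35 entries and in 37.4% of all promoters, and TGACG in 13 of 35 and in 20.8%. A match describes the letters only. Of the 35 promoters 18 lay under a member region.

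Because the genes are copies, much of the sequence under the regions occurs elsewhere in the genome. The share of a region's 31-base words found again on the assembled chromosomes of GRCm38 had a median of 27.3% over the 98 regions, 4.49% over the 322 other regions of the stretch and 2.87% over 387 other chromosome 17 regions (every 20th). At the genes from H2-Q4 to H2-Q10 the median was 77.8%, and 6 regions there, named H2-Q5, H2-Q8, H2-Q9 and H2-Q10, reached 100%. Reads of these regions can come from another copy, so their values are uncertain. At class II genes the median was 2.77%, and the 3 regions of H2-T24 had 3.67%, 6.69% and 0.963%. The GC content of the members had a median of 48.5%, close to the 47.1% of the other chromosome 17 regions, with 11.6 against 13.1 CpG per kb.

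**Figure D1:**
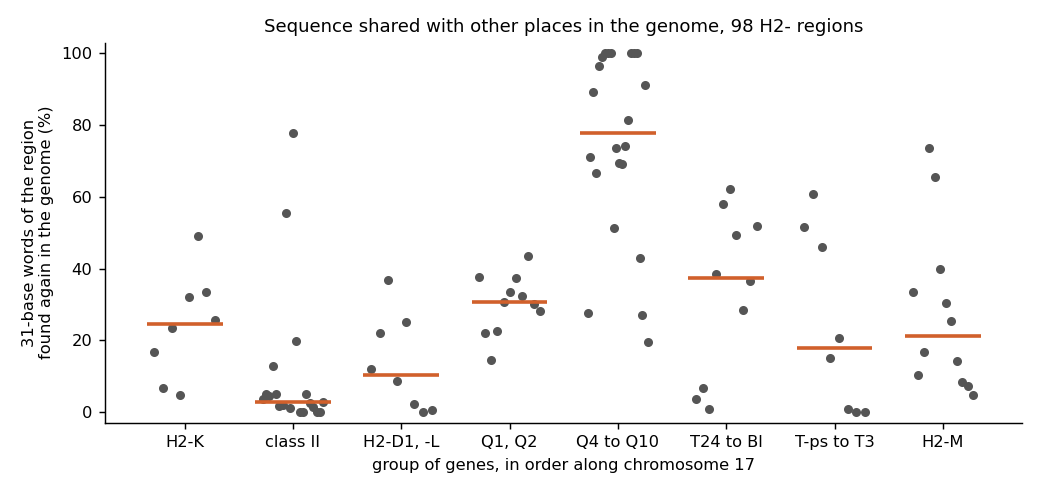
Each point is 1 of the 98 H2- regions, placed by its group of genes along chromosome 17, and the y axis gives the percentage of its 31-base words found again on the assembled chromosomes. Orange bars are medians, which reach 77.8% from H2-Q4 to H2-Q10 and are 2.77% at class II genes.

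The table holds 1 H3K4me1 level per group, pooled from 2 libraries, so no spread between replicates can be given and differences are described by size. A difference is one of deposited log2 levels within a region, set beside the median of chromosome 17. A difference of 1 on that scale is called 2-fold. The levels hold an added 1 before the log, so a difference can understate the ratio of reads. Levels were also turned back into normalized reads to show the depth. Members had a median of 40.0 reads over the groups, with 9.35 to 316 reads, and 22 of the 98 had under 32 reads in every group and are not described singly. Group medians at the members ran from 26.2 reads in naive DKO to 45.2 in formative dCD. Scaling matters for the comparisons between genotypes. Centring each group on its own median over all regions moved the median difference of all regions by 0.14 and 0.15 for floxed minus WT, 0.21 and 0.21 for DKO minus floxed and 0.35 and 0.40 for dCD minus WT (naive and formative), while the distance of the members from the chromosome 17 median stays the same by construction. The labelled states were checked on markers: the mean H3K4me1 difference at formative Fgf5 regions was 1.59 and that at naive Zfp42 regions was −1.001 in WT. Of the 10 pluripotent cell markers, 2 passed 1.5-fold upward and 2 downward, whereas Otx2 (0.01), Esrrb (0.00) and Nanog (0.07) were near 0. Fibroblast or feeder markers had regions as well, and 5 of 8 had a mean difference of at least 1.5-fold upward with the transition in WT and in floxed, none in DKO or dCD, where 12.8%, 9.9%, 1.57% and 2.6% of all genes did in WT, floxed, DKO and dCD. The list medians were 1.01, 0.67, −0.08 and 0.38 in WT, floxed, DKO and dCD, and Fap had the highest WT value (2.14); their part in the H2 values was not tested.

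During the transition of WT cells, H3K4me1 rose at 9 H2- regions and fell at 2 by the authors' FDR (below 0.05), taken as deposited. The gains lay mainly at 2 places, the H2-Q1 and H2-Q2 genes and the stretch from H2-Bl to H2-T10, both non-classical class I. The 11 regions are 11.2% of the members, against a percentage called of 20.3% over all regions, 19.4% on chromosome 17 and 9.01% of the other 322 regions of the stretch, so the share of regions with a call was not above the background. By direction the background was 9.82% higher and 10.5% lower. The direction of the small differences was uneven, with a median of 0.24 over the 98 members against −0.08 on chromosome 17 and −0.03 over the other regions of the stretch, and 74 of 98 members above the chromosome 17 median. At least 2-fold higher were 6 members (background 11.1%) and at least 2-fold lower 2 (background 11.4%).

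The smallest FDR belonged to an intergenic region 7624 bp from the H2-Q1 start (chr17:35326583-35329759). It had 35.7 reads in naive and 113 in formative WT, 51.8 and 123 in floxed, 21.9 and 32.4 in DKO and 25.6 and 53.5 in dCD. The authors' deposited table gives a log2 fold of 1.69 and an FDR of 3.43e-06, and the level difference was 1.61 in WT, 1.22 in floxed, 0.53 in DKO and 1.01 in dCD. WT and floxed ended at similar reads, and DKO and dCD ended lower. H2-Q1 encodes a little studied class I heavy chain. Its promoter region (chr17:35317179-35322103) went from 107 to 230 reads in WT and from 113 to 259 in floxed, but from 85.1 to 75.3 in DKO, with 127 and 183 in dCD. The authors' deposited table gives 1.14 and an FDR of 6.94e-05 there for WT. A region 8679 bp from the H2-Q2 start (chr17:35349933-35352039) had 46.4 and 96.1 reads in WT, 72.7 and 97.9 in floxed, 14.7 and 24 in DKO and 26.8 and 53.1 in dCD, with a deposited fold of 1.07 and an FDR of 0.00632. In every one of these 3 regions DKO had the fewest reads in the formative state.

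Further along, the H2-Bl promoter (chr17:36079179-36089582), which is among the widest members with 10404 bp, had 326 and 517 reads in WT and 389 and 517 in dCD, against 236 and 232 in floxed and 159 and 155 in DKO. H2-Bl is a transcribed pseudogene in RefSeq. The deposited fold in WT was 0.69 with an FDR of 0.000539. The neighbouring H2-T-ps region (chr17:36107158-36115036) had 279 and 462 reads in WT, 266 and 303 in floxed, 139 and 142 in DKO and 268 and 350 in dCD, with a deposited fold of 0.71 and an FDR of 0.000500. Here the level difference of the transition was 0.70 in WT, 0.38 in dCD, 0.18 in floxed and 0.03 in DKO, and pooled values allowed no test of the difference between genotypes. The other regions past the FDR were a second one at H2-Q2 (chr17:35356561-35360291, deposited fold 0.82), the promoter of H2-T10 (0.67), an intronic region of H2-DMa, a class II peptide exchange factor (0.61), and a distant one assigned to H2-M10.5 with few reads (8.14 and 32.7 in WT, 1.97). The 2 that fell were H2-Ea-ps (−2.22), with 24.2 and 5.67 reads, and an H2-T24 intron (−0.83), with 129 and 78.0 reads. Over the 9 that rose in WT, which were chosen on WT, the median level difference was 0.70 in WT, 0.43 in floxed, 0.26 in DKO and 0.41 in dCD, and it was above 0 at 9, 7, 6 and 9 of them.

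**Figure D2:**
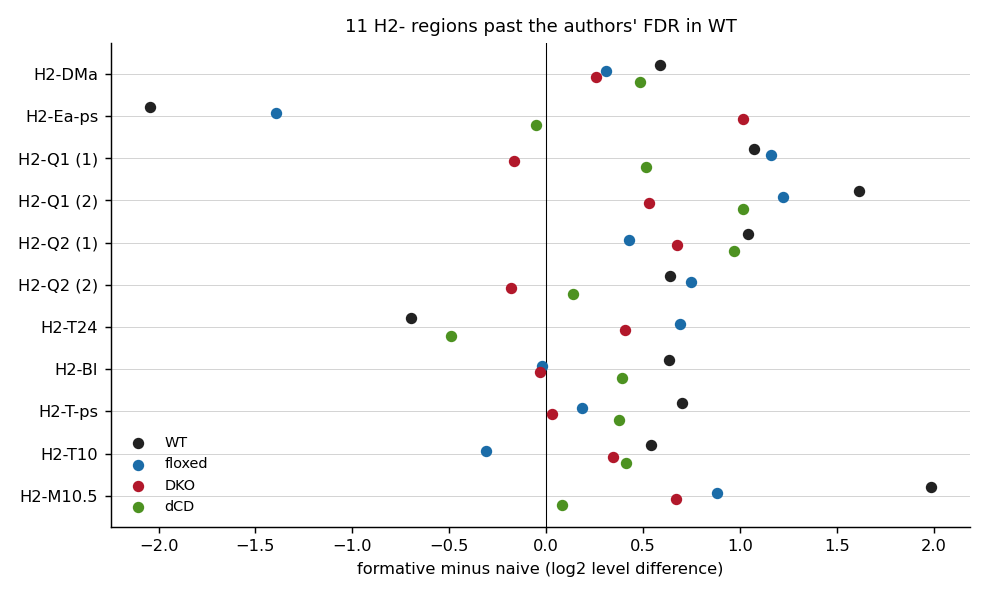
Formative minus naive differences of H3K4me1 level (log2, x axis) at the 11 H2- regions that pass the authors' FDR in WT, in order along chromosome 17, with 1 pooled value per genotype and no error. WT points lie to the right of 0 at 9 regions and to the left at H2-Ea-ps and H2-T24, and DKO points lie between −0.18 and 1.02.

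Set against chromosome 17, the median of the transition at the members stood 0.32 higher in WT, 0.31 in floxed, 0.29 in dCD and 0.14 in DKO. The median was 0.16 in floxed against −0.15 on chromosome 17, 0.15 in DKO against 0.01, and 0.26 in dCD against −0.03, with 75, 61 and 72 of the 98 members above the respective chromosome 17 median. In floxed 6 members were at least 2-fold higher (background 9.33%) and 2 lower (10.6%). In DKO 2 were higher (1.2%) and 2 lower (1.25%), and in dCD 3 were higher (1.37%) and none lower (2.47%). With quantile scaling or on reads the DKO split was 0 higher and 2 lower. The highest members in single genotypes were a region assigned to H2-L in floxed (chr17:35269337-35270642, 1.501, from 9.84 to 28.4 reads) and one near H2-Q5 in dCD (chr17:35389129-35390260, 1.27, from 17.3 to 42.1 reads). Another near H2-Q10, a secreted class I molecule of the liver, was 1.11 higher in WT (chr17:35460307-35461908, from 20.0 to 43.6 reads) and had 23.4 and 23.6 reads in DKO. It and the H2-Q5 region named next consist of sequence that recurs in full elsewhere. A region at H2-Q5 differed by 1.21 in floxed (chr17:35407806-35409651, from 13.0 to 30.8 reads). Of the 36 genes, taken as means over their regions, 8 lay at least 1.5-fold above and 1 below the chromosome 17 median in WT, where 12.3% and 11.3% of chromosome 17 genes did. The counts were 7 and 1 in floxed (11.5% and 10.4%), 2 and 1 in DKO (2.38% and 1.53%) and 1 and 0 in dCD (2.96% and 1.62%). By class, the WT median was 0.32 at non-classical class I regions, 0.23 at class II and 0.07 at classical class I.

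In the floxed line, which keeps MLL4 and lacks MLL3, a block of H2-T genes had the lowest values. All 10 regions of H2-T24, H2-T23, H2-T9 and H2-Bl, within 86.0 kb, had less H3K4me1 in floxed than in WT in both states, with medians of −1.13 in naive and −1.01 in formative cells. The block was picked out after its values were seen, and it is described without a test. The summed reads of its 10 regions were 1438 in naive WT, 740 in floxed, 564 in DKO and 1251 in dCD, and 1744, 885, 667 and 1501 in the formative state. By these sums WT and dCD, the 2 genotypes labelled R1, were high in both states. Floxed and DKO, which carry no line label, were low, so genotype and line cannot be told apart here. Not every region had this order. At an H2-Bl region (chr17:36089871-36100284) dCD had 200 and 247 reads, below floxed with 248 and 298. At an H2-T23 region (chr17:36034311-36036737) naive dCD had 32.2 reads and naive floxed 35.6. At the other regions of the block dCD lay above floxed in both states. Over all 98 members the median was 0.08 in naive (chromosome 17: 0.02) and −0.06 in formative cells (−0.06).

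Among regions with at least 32 reads in some group, the lowest value was that of an H2-T24 intron (chr17:36014239-36018385). It had 129 reads in naive WT, 12.2 in floxed, 22.4 in DKO and 92.8 in dCD, and 78.0, 21.8, 30.8 and 64.9 in the formative state. Floxed minus WT was −3.08 and −1.69, the first being the lowest value of all 7820 chromosome 17 regions in the naive comparison. Over the 10 regions of the block, the share of recurring 31-base words had a median of 37.4%. At H2-T23, H2-T9 and H2-Bl it ran from 28.3% to 62.1%, so reads there can come from another copy. In the H2-T24 intron region with the lowest value only 3.67% of these words recur. The middle 200 bases of that region (chr17:36016213-36016412, plus strand, GRCm38.p6) are shown with their 3 CpG in capitals.
H2-T24: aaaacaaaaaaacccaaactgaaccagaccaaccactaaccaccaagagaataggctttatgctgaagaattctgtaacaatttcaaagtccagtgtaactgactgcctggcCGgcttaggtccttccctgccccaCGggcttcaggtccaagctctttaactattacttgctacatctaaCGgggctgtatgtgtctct
H2-T24 encodes a non-classical heavy chain. A second region assigned to it (chr17:36022656-36026944) had 132 and 124 reads in WT, 26.7 and 47.4 in floxed, 35.7 and 31.3 in DKO and 65.1 and 59.5 in dCD (naive and formative), with differences of −2.16 and −1.32 between floxed and WT. The third (chr17:36018931-36021440) had 67.9 and 81.6 in WT, 23.5 and 42.1 in floxed, 11 and 15.7 in DKO and 80.9 and 82.0 in dCD. H2-T23 encodes Qa-1, the ligand of the inhibitory receptor CD94/NKG2A. The region over its promoter (chr17:36027053-36033676) had 201 and 169 reads in WT, 42.1 and 74.7 in floxed, 96.9 and 109 in DKO and 193 and 191 in dCD, a floxed minus WT difference of −2.04 in naive cells. In this region DKO lay between floxed and WT, and dCD was close to WT. The block did not end at the H2 names. A run of 15 neighbouring regions over 119 kb, from A930015D03Rik to H2-T-ps, was below 0 in both states, 11 of them members and 4 near A930015D03Rik, Gm6034 and Gm11127, and 7 were at least 2-fold lower in naive and 8 in formative cells. Just before it, regions near Gnl1 (409 naive WT and 431 naive floxed reads) and Prr3 (150 and 167) were not lower in naive floxed cells.

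**Figure D3:**
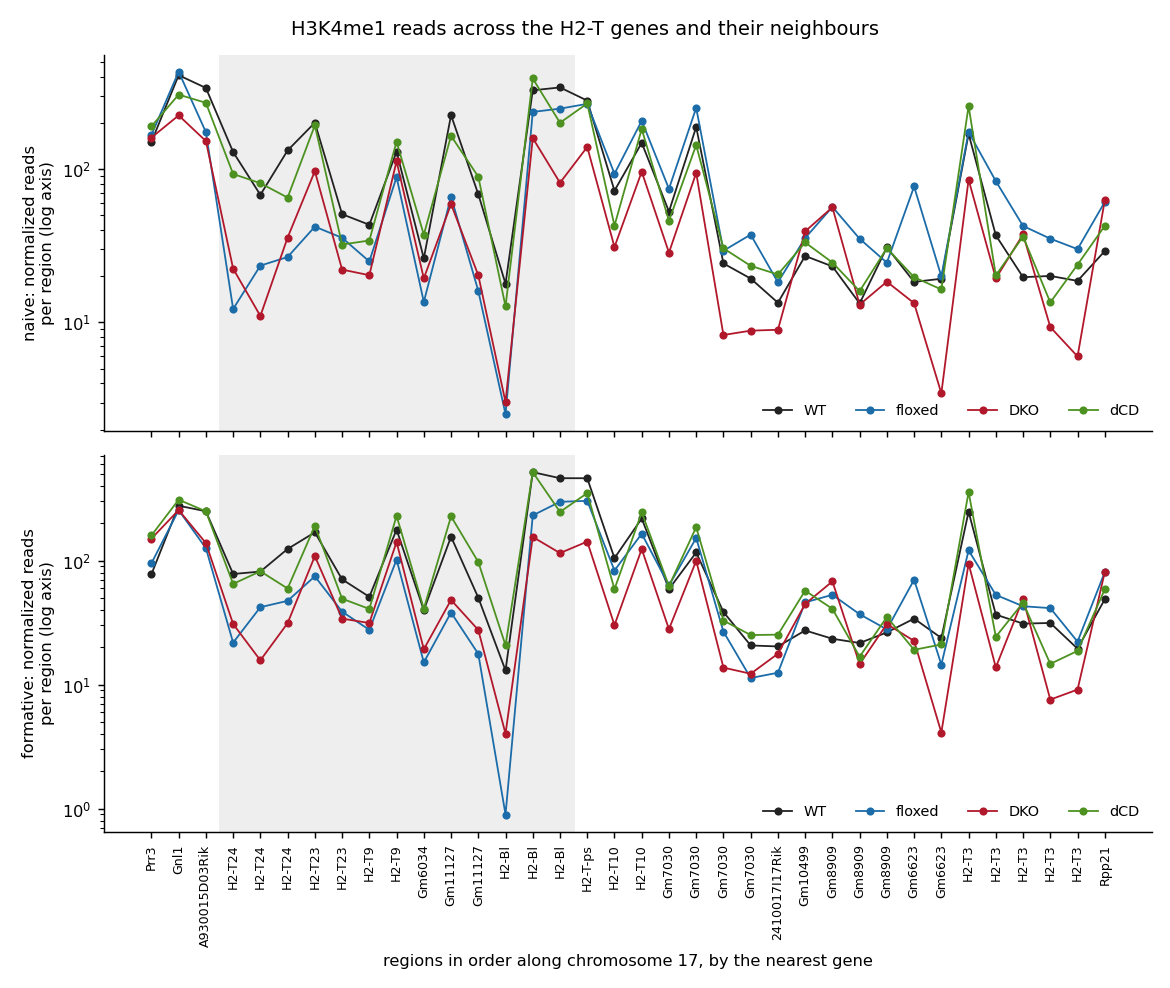
Normalized H3K4me1 reads (log axis) in naive (top) and formative (bottom) cells for each region of the H2-T stretch and its neighbours, in order along chromosome 17, with 1 pooled value per genotype. In the grey span from H2-T24 to H2-Bl, floxed and DKO lie below WT at each H2- region in both panels.

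At least 2-fold lower in floxed than in WT were 5 of 98 members in naive cells (background 4.38%) and 7 in formative cells (3.83%). All were at non-classical class I genes, the class of 63 of the 98 members, and the block held 5 in each state. At least 2-fold higher were 2 (0.864%) and 1 (0.526%). Centred on the group medians, the naive split was 4 higher and 5 lower. Without the 4 genes of the block, 2 and 3 regions were left at 2-fold. The 2 higher ones in naive cells lay beyond the block near H2-T3, the thymus leukaemia antigen. One (chr17:36191929-36193098) had 37.0 and 36.7 reads in WT, 83.4 and 52.9 in floxed, 19.4 and 13.8 in DKO and 20.3 and 24.3 in dCD. The other (chr17:36215130-36216044) had 19.7 and 31 in WT, 42.5 and 42.8 in floxed, 37.5 and 49.3 in DKO and 36.3 and 45.8 in dCD. In the first, floxed alone was high, and in the second WT alone was low in naive cells. The H2-Ea-ps region (chr17:34340306-34341418) was 0.97 higher in naive floxed and 1.62 higher in formative floxed cells, at 47.8 and 18.0 against 24.2 and 5.67 reads in WT. The H2-M10.5 region named above was 1.22 lower in formative floxed cells on the log2 scale (14 against 32.7 reads). As means over the regions of a gene, set against the chromosome 17 median, the farthest in naive cells were H2-T24 (−2.26), H2-T23 (−1.29), H2-Bl (−1.23), H2-Ea-ps (0.95) and H2-T3 (0.74), and in formative cells H2-Bl (−1.74), H2-Ea-ps (1.68), H2-T24 (−1.26), H2-T23 (−0.91) and H2-M10.5 (−0.89). The H2-Bl mean rests on a region with under 32 reads in every group (−2.77 and −3.71). Its other regions differed by −0.43 and −0.43 in naive and by −1.09 and −0.60 in formative cells. The H2-M10.5 mean rests on regions of 13.0 and 13.2 reads on average over the groups. Of 36 H2- genes, 6 in naive and 7 in formative cells lay at least 1.5-fold from that median, 4 and 5 of them below it, where 3.72% and 4.19% of 1049 chromosome 17 genes lay below it and 2.48% and 1.14% above.

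**Figure D4:**
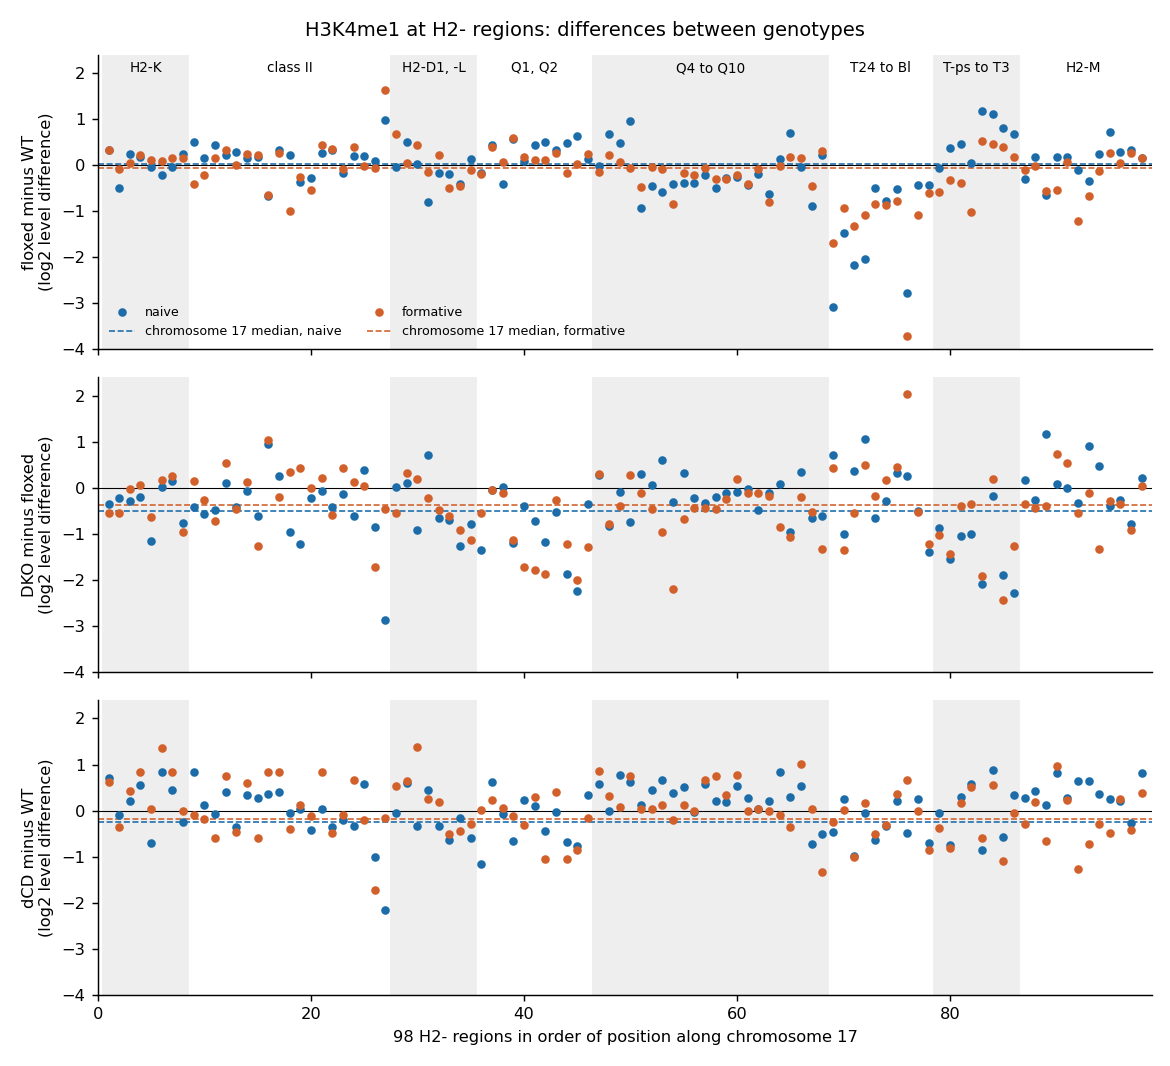
Differences of H3K4me1 level (log2) between genotypes at the 98 H2- regions in order along chromosome 17, with 1 pooled value per point, naive in blue and formative in orange, and dashed lines at the chromosome 17 medians. Grey and white bands are groups of genes, and the lowest points of the top panel lie in the band from H2-T24 to H2-Bl.

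When MLL4 was lost as well, H3K4me1 at the H2 genes was lower than in floxed. The median of DKO minus floxed was −0.32 in naive cells, where chromosome 17 had −0.50 and all regions had −0.18. In formative cells it was −0.40, against −0.36 on chromosome 17 and −0.13 over all regions. The members thus lay below the median of all regions in both states, and above that of chromosome 17 in naive cells only. The deficit was uneven. Gene means were −1.25 and −1.19 (naive and formative) for H2-Q2, −1.49 and −1.15 for H2-T3 and −1.30 and −0.91 for H2-T10, −2.86 and −0.45 for H2-Ea-ps, and −0.39 and −0.22 for H2-K1. In naive cells 16 of 98 members were at least 2-fold lower (background 15.9%) and 2 higher (4.36%). In formative cells 21 were lower (16.7%) and 2 higher (6.47%). The lower regions were 16.3% and 21.4% of the members, against 24.8% and 22.6% of chromosome 17 regions. Neither share was thus above that of the chromosome. Centring changed the naive split to 4 higher and 11 lower and quantile scaling to 4 and 10. The comparison shares its floxed samples with floxed minus WT, so a region that was low in floxed starts from a lower level here.

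The 11 regions of H2-Q1 and H2-Q2 had medians of −0.72 and −1.22, with 5 and 7 of them at least 2-fold lower. Their summed reads were 564 in naive WT, 669 in floxed, 393 in DKO and 520 in dCD, and 847, 947, 414 and 709 in formative cells. So the formative state, where WT and floxed were highest, showed the wider gap. The H2-Q2 region at chr17:35349933-35352039 differed by −2.24 and −1.99. The 8 regions from H2-T-ps to H2-T3 had medians of −1.30 and −1.15, with 5 at least 2-fold lower in each state. Among them an H2-T3 region (chr17:36219268-36220140) differed by −1.90 and −2.43, with 35.1 and 41.4 reads in floxed and 9.32 and 7.57 in DKO, and another at chr17:36191929-36193098 differed by −2.09 and −1.92. The H2-T3 region between them (chr17:36215130-36216044) differed by −0.18 and 0.20. Summed over those 8 regions, reads were 765 in naive WT, 931 in floxed, 424 in DKO and 844 in dCD. The lowest naive value was that of H2-Ea-ps (−2.86), from 47.8 to 6.37 reads. Higher in DKO than in floxed were the region over the H2-T23 promoter in naive cells (1.05) and a region of H2-DMb2, a class II peptide editor, in formative cells (chr17:34148309-34149661, 1.04), from 10.4 to 21.8 reads. In the block from H2-T24 to H2-Bl the medians were −0.02 and −0.00, with 5 of 10 regions above 0 in each state and values from −1.38 to 1.05 in naive and −1.35 to 2.04 in formative cells, while the summed reads given above were lower in DKO than in floxed. Against WT the block stood at −1.47 and −1.43 in DKO, with 7 of 10 regions at least 2-fold lower in each state, and at −0.40 and −0.13 in dCD, with 0 and 1. These comparisons share the WT samples.

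As gene means from the chromosome 17 median, the farthest in naive cells were H2-Ea-ps (−2.36), H2-M10.4 (1.12), H2-T3 (−0.99), H2-T10 (−0.80) and H2-M10.5 (0.79). H2-M10 genes encode class I molecules of the vomeronasal organ. The farthest in formative cells were H2-M11 (0.90), H2-Q2 (−0.83), H2-T3 (−0.79), H2-Q8 (−0.74) and H2-T9 (0.68). Some of these means rest on few reads. On average over the groups, the H2-M10.5 regions had 13.0 and 13.2 reads, the H2-M10.4 regions 16.3 and 33.7, and the H2-M11 region 22.3. The H2-Q8 regions had 10.5, 44.2 and 150 reads, with 100%, 100% and 51.4% recurring words. By class, the naive and formative medians were −0.65 and −0.49 at classical class I, −0.42 and 0.03 at class II, and −0.28 and −0.44 at non-classical class I regions. Class II was the only one of these 3 classes with a formative median above 0. Of the 36 genes, 7 lay at least 1.5-fold above and 4 below the chromosome 17 median in naive cells (14.5% and 9.72% of chromosome 17 genes), and 3 and 5 in formative cells (19.4% and 10.7%). Directly against WT, DKO had medians of −0.40 and −0.56 over the members, against −0.57 and −0.47 on chromosome 17. At least 2-fold lower were 18 (background 16.2%) and 29 (20.2%) regions, and 0 (2.54%) and 1 (4.47%) were higher. The lower regions were 18.4% and 29.6% of the members, against 25.5% and 25.7% of chromosome 17 regions. In formative cells 24 of the 29 lower members were non-classical class I regions. As gene means, 7 lay above and 3 below in naive DKO against WT (17.2% and 7.44%), and 7 and 7 in formative cells (22.5% and 10.4%). Among regions with at least 32 reads in some group, the lowest was the H2-T24 one at chr17:36018931-36021440, with −2.49 and −2.29.

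In dCD, in which both enzymes are present without catalytic activity, H3K4me1 relative to WT was higher at the H2 genes than on the rest of the chromosome. The median of dCD minus WT was 0.20 in naive cells, against −0.25 on chromosome 17 and −0.12 over the other regions of the stretch. In formative cells it was 0.01, against −0.19 and 0.09, so in that state the neighbours of the H2 genes stood higher still. Above the chromosome 17 median were 70 and 63 of 98 members. On the deposited scale 3 members were at least 2-fold lower in naive cells (background 13.9%) and none higher (1.55%), and 7 lower (20.1%) and 3 higher (2.59%) in formative cells. The split depends on the scaling: centred on the group medians it was 10 higher and 1 lower in naive and 19 and 1 in formative cells, and with quantile scaling 4 and 1, and 12 and 1. The centred medians were 0.55 (naive) and 0.41 (formative) at the members, against 0.10 and 0.21 on chromosome 17.

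The higher regions in formative dCD included one in an intron of H2-K1 (chr17:33998666-33999617), which had 30.5 and 32.3 reads in WT, 26.4 and 34.6 in floxed, 26.6 and 39.1 in DKO and 54.3 and 82.7 in dCD, a difference of 1.35. dCD was the highest genotype there in both states. The region over the promoter of H2-Q10 (chr17:35468926-35471744) had 76.1 and 77.0 reads in WT and 111 and 156 in dCD (1.005). Lower in formative dCD were another H2-Q10 region (chr17:35484726-35487140, −1.33, from 64.7 to 25.1 reads), the H2-M10.5 region (−1.27) and the H2-T3 region at chr17:36219268-36220140 (−1.09). In naive cells the lower ones were H2-Ea-ps (−2.15) and an intergenic region near H2-Q1 (chr17:35294969-35297378, −1.15, from 74.2 to 32.8 reads). The gene means farthest from the chromosome 17 median were H2-Ea-ps (−1.90), H2-M3 (1.07), H2-M10.5 (0.89), H2-Q6 (0.83) and H2-Q4 (0.82) in naive cells. In formative cells they were H2-Q4 (1.06), H2-Q6 (0.85), H2-M10.5 (−0.81), H2-K1 (0.80) and H2-Eb2 (−0.77). Few reads lie behind the means of H2-M10.5 (regions of 13.0 and 13.2 reads on average over the groups) and H2-Eb2 (18.8 and 18.7). Counted at 1.5-fold, 7 genes were above and 1 below in naive cells (13.2% and 4.86% of chromosome 17 genes), and 5 and 2 in formative cells (21.4% and 7.44%). H2-M3 presents formylated bacterial peptides, and H2-Q4 and H2-Q6 belong to the Qa genes. Among the regions from H2-Q4 to H2-Q10, whose sequences recur in the genome, 18 of 22 were above 0 in naive dCD. So were 57 of the 98 members and 61470 of 186824 regions in all. Of the H2-M regions, with a median of 21.1% recurring words, 11 of 12 were above 0 as well.

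The classical genes H2-K1 and H2-D1, the main peptide presenters of most tissues are given here in every group. The 5 H2-K1 regions summed to 157 and 153 reads in WT (naive and formative), 161 and 170 in floxed, 126 and 153 in DKO and 187 and 250 in dCD. The H2-K1 promoter region (chr17:34000108-34001828), which carries the enhancer A shown above, had 36.5 and 36.0 reads in WT, 35.6 and 40.4 in floxed, 39.7 and 48.7 in DKO and 50.2 and 64.5 in dCD. No group was low there, and dCD was the highest in both states. The only region named H2-D1 (chr17:35257547-35261455) had 72.1 and 62.6 reads in WT, 69.96 and 101 in floxed, 70.9 and 68.9 in DKO and 69.2 and 92.4 in dCD. The region over the H2-D1 promoter, named H2-L in the table, had 76.1 and 103.1 reads in WT, 109 and 107 in floxed, 118 and 134 in DKO and 115 and 163 in dCD. The lowest of these 8 values was that of naive WT, and DKO lay above WT in both states. As gene means, DKO minus WT was −0.37 and −0.07 for H2-K1 and −0.02 and 0.13 for H2-D1. Floxed minus WT was 0.03 and 0.15 for H2-K1 and −0.04 and 0.67 for H2-D1. DKO minus floxed was 0.02 and −0.54 for H2-D1. The H2-D1 means rest on the only region of that name, where formative floxed cells had the most reads. At the region over the H2-D1 promoter formative dCD had the most, and floxed was close to WT in that state.

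RNA of the nearest gene and H3K27ac, a mark of active enhancers, were given in the authors' deposited table as log2 folds from samples outside this series, with no error. RNA folds were present for 11 of the 36 H2- genes. By those folds, 5 of the 11 were at least 2-fold higher in formative than in naive WT cells (background 19.1%) and 1 was lower (9.77%). The fold was 3.04 for H2-Q2, 2.91 for H2-Q10, 2.31 for H2-K1, 1.78 for H2-M3 and 1.44 for H2-Bl, and −3.24 for H2-M5. The H3K4me1 gene means over the same transition were 0.58, 0.34, −0.05, 0.49 and 0.20, and −0.14 for H2-M5. H2-K1 thus combined a higher RNA with an almost even H3K4me1 level. In bulk samples, fewer expressing cells and less RNA per cell cannot be told apart.

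In DKO the deposited RNA fold of the transition was 2.36 for H2-K1 and 2.70 for H2-Q10, close to WT, and 1.25 for H2-Q2. For H2-D1 the fold was larger in DKO (2.54) than in WT (0.89). In DKO 5 of 11 genes were at least 2-fold higher (background 20%) and 1 lower (5.25%). DKO minus WT in formative cells was −2.36 for H2-Q2 and −2.21 for H2-Bl, where the H3K4me1 gene means were −1.11 and −1.70, and 2 of the 11 genes were at least 2-fold lower (background 5.65%) and 1 higher (6.99%). In naive cells 2 were higher (9.62%) and 2 lower (11.7%). For H2-T24 both values went apart: its H3K4me1 gene mean in DKO minus WT was −2.21 and −1.80, while the authors' deposited RNA fold was 1.56 in naive and 0.87 in formative cells. For H2-M3 the RNA fold was 1.60 and 1.39, with H3K4me1 at 0.37 and 0.19. H2-D1 had an RNA fold of −1.55 in naive DKO and 0.09 in formative DKO. The other genes with RNA values were H2-Ab1, H2-Eb1 and H2-T3, with formative folds of −0.44, −0.11 and 0.18 in DKO minus WT.

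**Figure D5:**
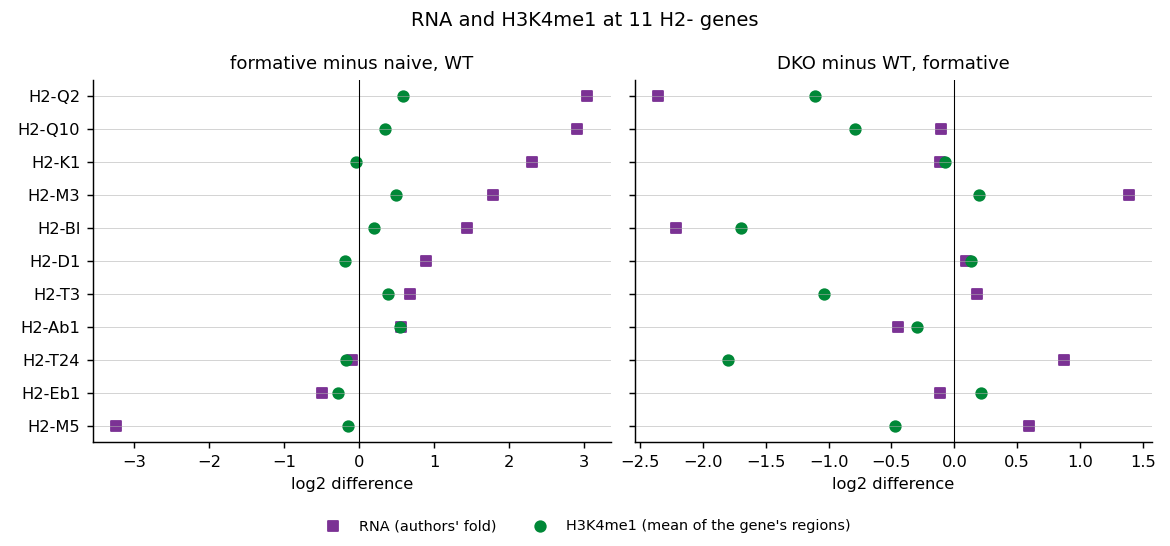
Log2 differences (x axis) of RNA, from the authors' deposited table (squares), and of H3K4me1, as the mean of a gene's regions (circles), for 11 H2- genes, with no error given. At left, formative minus naive in WT, RNA of H2-Q2 stands at 3.04 with H3K4me1 at 0.58; at right, DKO minus WT in formative cells, H2-T24 has RNA at 0.87 and H3K4me1 at −1.80.

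The authors' deposited H3K27ac folds at the members had a median of 0.63 for the WT transition, against 0.33 on chromosome 17, and of 0.06 in DKO, against 0.02. DKO minus WT was −0.13 in naive cells (chromosome 17: 0.14) and −0.45 in formative cells (−0.15). At the 11 regions of H2-Q1 and H2-Q2 the WT transition had a median of 1.56, and DKO minus WT had 0.37 in naive and −0.96 in formative cells. At the H2-Q1 promoter region the deposited H3K27ac folds were 1.82 in the WT and −0.57 in the DKO transition, the same order as for H3K4me1. At the 10 regions from H2-T24 to H2-Bl the medians of DKO minus WT were −0.83 and −0.71. Folds over 4 in size stood at 11 members in the WT transition, so single folds are uncertain.

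The partners of the H2 molecules were looked up as lists. Of 14 antigen processing and class I partner genes, 12 had regions, among them B2m, the light chain of class I, and Tap1 and Tap2, the peptide transporter encoded between the class II genes. Their median gene difference in the WT transition was −0.09, with none at least 1.5-fold higher (background over all genes 12.8%) and 2 lower (15.1%). In DKO minus floxed it was 0.03 in naive and 0.40 in formative cells, with 4 higher in formative cells (13.6%), which were Erap1 (0.73), Calr (0.82), Pdia3 (0.89) and Psme1 (0.59), none of them on chromosome 17. B2m had −0.11 and −0.34. In dCD minus WT, 3 of the 12 were higher in formative cells (7.97%) and none lower (17%). Over the transitions in DKO and dCD no partner gene passed 1.5-fold either way, where 1.57% and 2.6% of all genes were higher and 1.03% and 1.93% lower. Of 20 regulators with regions out of 21, 4 were lower in naive DKO than floxed (16.3%) and 1 was higher (7.58%). The lower ones included Irf1 (−0.83), an interferon response factor, and Nfya (−1.21), a subunit that binds the Y box. The higher one was Irf2 (0.60). Ciita, the class II transactivator, had −0.42 and −0.35, and Nlrc5, that of class I, 0.22 and −0.24. The class II partners Cd74, Ctss and Ifi30 had no gene at 1.5-fold in any comparison described. Between 0.692% and 18.3% of all genes passed per direction, depending on the comparison, so 3 genes are too few to set them apart. Of 8 markers of antigen presenting and blood cells, 1 was lower in naive floxed than WT (5.35%), and in the WT transition 1 was higher (Ptprc, 0.67) and 2 were lower (Itgax, −0.65, and Spi1, −0.71).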

How the data were processed

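H3K4me1 was mapped by CUT&RUN in 16 libraries, 2 for each of 8 groups. Build mm10 and the tools DiffBind, SEACR, Bowtie2, deepTools and Trim Galore are listed, without roles, in the submitters' processing notes. The authors deposited 1 table of 186826 regions with 1 pooled log2 level per group. By its values a level is the log2 of 1 plus normalized reads times a constant over the squared width, which is why each region was compared only with itself, and levels were turned back into reads. The authors also deposited an FDR for the WT transition, and log2 folds of RNA and H3K27ac from samples outside this series. Columns named CKO were taken as floxed, as the sample descriptions name the tracks. Levels were missing for 2 regions, and 14 further level columns were not used. The labels disagree on the antibody, so the mark is named as labelled.

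Differences of log2 levels were computed with Python 3.11.15, numpy 2.4.6 and pandas 2.3.3, drawn with matplotlib 3.10.9, and tested on simulated data. The planned limma test needs replicate values, and these columns hold 1 value per group, so sizes are given with no test, spread or counting interval, and depth is known only as normalized reads. Regions named singly were the 3 with the largest difference past 2-fold in each direction with at least 32 reads in 1 group, regions past the authors' FDR, and the 5 genes farthest from the chromosome 17 median. Members and lists were chosen with earlier results of these data known. The groups of neighbouring genes and DKO minus WT were chosen after seeing the values. Alternatives were another scaling, a read minimum, a narrower distance, a read ratio and sets without pseudogenes.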

Additional observations from a re-analysis of the deposited data

How the results depend on the processing

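No paired analysis was possible because each group has 1 pooled column, and for the same reason no replicate could be left out. Medians near 0 changed sign: floxed minus WT went from −0.06 to above 0 in formative cells when rescaled (below) and from 0.08 to −0.027 in naive cells with the read minimum, and formative dCD minus WT from 0.01 to −0.0037 without pseudogenes. Centring turned the split of dCD minus WT from 0 higher and 3 lower to 10 and 1 in naive cells, and from 3 and 7 to 19 and 1 in formative cells. Medians stayed within the binomial interval of the median over regions, which are not replicates, in 61 of 72 alternatives. Counts stayed within 1.5 times in 64 of 86. These were counts of regions at 2-fold, of genes at 1.5-fold from the chromosome 17 median and of regions past the authors' FDR. For 35 pairs of a singly named region and a comparison, 94 alternative values kept their size class and 11 fell under it. Some regions occur in several pairs. With at least 32 reads on average (58 regions), fewer regions were tested: the counts at 2-fold were 3 instead of 8 for the WT transition, 2 instead of 8 for floxed, 0 instead of 4 for DKO and 1 instead of 3 for dCD; floxed minus WT had 5 instead of 8 in formative cells, DKO minus floxed 10 instead of 18 and 11 instead of 23, and dCD minus WT 1 instead of 3 and 5 instead of 10. The read ratio gave 5 for the floxed and 2 for the DKO transition. Without pseudogenes, 4 were left for the floxed transition and 5 for formative floxed minus WT.

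Centred on group medians, the median of floxed minus WT was 0.22 in naive and 0.091 in formative cells (5 regions at 2-fold in the latter), that of DKO minus floxed −0.11 and −0.19, and that of dCD minus WT 0.55 (11 regions) and 0.41 (20 regions). Quantile scaling gave 2 regions for the DKO transition, a median of 0.073 and 5 regions for formative floxed minus WT, −0.082 for naive DKO minus floxed, and 0.45 (5 regions) and 0.37 for dCD minus WT. At an FDR below 0.01, 5 regions were left of 11, against 11.3% of all regions. Chosen after seeing the data, leaving out H2-T24, H2-T23, H2-T9 and H2-Bl left 2 and 3 regions at 2-fold in floxed minus WT, and WT in place of floxed as the reference moved the formative DKO median to −0.56. The cause of these shifts was not tested. Low reads limit 22 regions, which had under 32 in every group.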
